A study of Mus musculus with 6 samples.

Results

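The genes described here are 39 regulators and effectors of the cell cycle, chosen by name from the 24980 gene symbols measured in muscle satellite cells, and all 39 were listed. They fall into 19 genes of G2 and mitosis (G2/M) and 20 genes of G1, the G1/S transition and DNA replication. Within the latter, 13 encode the replication machinery, nucleotide synthesis enzymes, E-type cyclins and E2f1, and 7 encode the D-type cyclins, their kinases, Cdk2 and Rb1, called G1 control genes below. The symbols alone set the choice, although they were picked with earlier results of these data known.

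Satellite cells, the stem cells of skeletal muscle, were sorted by flow cytometry from hindlimb muscles of adult C57BL6/J mice. RNA-seq libraries were made from 3 samples of genotype scERα WT and 3 of genotype scERα KO, in which the estrogen receptor α gene Esr1 is targeted in satellite cells. Mice of both genotypes were injected with tamoxifen (total 10 mg) so that Cre became active. The labels name neither the promoter of Cre nor the age in weeks or sex of the animals. Nor do they state that the 6 libraries come from 6 animals, and a p-value therefore covers only library-to-library scatter, part of which could be technical. KO was compared with WT to see which satellite cell transcripts depend on the targeted receptor gene. Values are TPM, transcript abundance scaled to gene length and library total, and the libraries are numbered 1 to 3 within each genotype.

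In adult muscle most satellite cells rest outside the cycle and enter it after injury. Mitogens induce D-type cyclins, which with Cdk4 and Cdk6 phosphorylate the retinoblastoma protein Rb1 and release E2F factors. E2F factors then drive cyclin E, the MCM helicase and enzymes of DNA synthesis, and later in the cycle the DREAM and B-Myb-FoxM1 complexes control the genes of G2 and mitosis through promoter elements called CHR, often beside CCAAT boxes bound by NF-Y. Bulk RNA cannot tell a larger share of cycling cells from more RNA of these genes per cell.

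The promoters of the 39 genes carried the letters of these elements in different proportions. RefSeq windows (GRCm38.p6, 250 bases before to 50 after the annotated start) matched 31 of the genes, with 33 windows. Letters searched on both strands, with overlaps allowed, were TTTGAA or else TTCGAA for CHR, the box CCAAT, and for E2F TTCCCGC as well as TTGGCGC, besides TTCGCGC or lastly TTGCCGC. A CHR match lay in 13 of 16 windows of the G2/M genes and in 2 of 17 windows of the G1/S and replication genes, against 19.2% of all 32851 windows. An E2F match lay in 4 of 16 G2/M windows and in 8 of 17 G1/S and replication windows, against 9.57% of all windows. It lay in 7 of 12 windows of the replication genes and in 1 of 5 windows of the G1 control genes. CCAAT was found in 15 of 16 G2/M windows, in 11 of 17 G1/S and replication windows and in 37.4% of all windows. Of the replication windows alone 9 of 12 held it. A match describes the letters only.

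5 promoters are printed as examples of the contrast: Mki67, Top2a and Ube2c as mitotic genes, and Mcm6 and Rrm1 as replication genes. Other members did not follow it. Ccnb1 and Cenpe held no CHR match, and Birc5 held no match to CHR, E2F or CCAAT. A CHR match was present for Mcm2 and Mcm7, and no E2F match for Pcna, Mcm2, Tyms, Ccne1 and E2f1. Each line gives the 150 bases before the start, 5′ to 3′ on the gene's strand, with CHR, E2F and CCAAT matches on either strand in capitals. The regions, in the same order, are chr7:135716380-135716529 (minus strand), chr11:99024190-99024339 (minus), chr2:164769779-164769928 (plus), chr1:128359706-128359855 (minus) and chr7:102441545-102441694 (plus).
Mki67: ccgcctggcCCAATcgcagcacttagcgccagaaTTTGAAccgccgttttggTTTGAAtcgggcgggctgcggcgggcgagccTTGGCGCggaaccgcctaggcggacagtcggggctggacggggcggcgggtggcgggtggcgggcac
Top2a: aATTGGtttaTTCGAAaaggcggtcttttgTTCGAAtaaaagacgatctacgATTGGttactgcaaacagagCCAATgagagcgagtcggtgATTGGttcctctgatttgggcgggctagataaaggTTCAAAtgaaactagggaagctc
Ube2c: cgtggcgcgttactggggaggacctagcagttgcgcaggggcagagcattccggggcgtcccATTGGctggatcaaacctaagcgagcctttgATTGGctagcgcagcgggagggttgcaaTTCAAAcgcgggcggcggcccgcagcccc
Mcm6: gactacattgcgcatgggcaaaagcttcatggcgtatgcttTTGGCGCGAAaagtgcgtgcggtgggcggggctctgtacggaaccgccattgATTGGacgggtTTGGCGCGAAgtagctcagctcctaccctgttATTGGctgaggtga
Rrm1: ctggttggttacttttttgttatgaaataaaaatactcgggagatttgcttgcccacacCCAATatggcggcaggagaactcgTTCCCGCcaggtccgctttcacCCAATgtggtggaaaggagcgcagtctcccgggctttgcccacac
The first 3 hold CHR letters close to CCAAT boxes, and Mki67 also holds 1 E2F match (TTGGCGC). The stretch of Mcm6 holds E2F letters at 2 places, each read on both strands, and that of Rrm1 holds TTCCCGC between 2 CCAAT boxes. Neither of these replication promoters holds a CHR match in its whole window.

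Each library's listed TPM added up to 295306 at the least and 334382 at the most. TPM keeps no sequencing depth, so no counting interval can be given, and the number of reads behind a value is unknown. Satellite cell markers were present in every library, with Pax7 between 17.9 and 32.8 TPM and all 12 markers of the list present at 5.03 TPM or more throughout. Esr1 held 7.53, 6.96 and 6.94 TPM in WT and 2.92, 3.69 and 3.87 TPM in KO libraries 1, 2 and 3, so every library lay on the side its label names (exact two-sided permutation test p = 0.1, the smallest that 3 against 3 allows; limma adjusted p = 0.0925). Tests were made with limma on log2(TPM + 1) over 8971 genes with 1 TPM or more in at least 3 libraries, with Benjamini-Hochberg adjustment and a threshold of 0.05. At that threshold 3 genes (0.0334%) were higher and 2 (0.0223%) lower in KO, none of them among the 39.

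The mean level was higher in KO for all 39 genes, but none passed the test. By comparison, 68.6% of the 20506 genes detected in at least 1 library had a higher mean in KO. The direction of Pcna turned when libraries were scaled by median of ratios or quantile-normalized, and that of Cenpa with the former, after rescaling protein-coding genes, with a pseudocount of 0.1 (-0.22) and without WT library 2 (-0.04) or KO library 3 (-0.27). Low levels kept 18 of the 39 out of the test, 12 of them G2/M genes, and 6 stayed under 1 TPM in every library. Of the 21 tested, 15 reached 1 TPM in all 6 libraries and the other 6 in only 1 WT library, so these 6 passed the filter mostly through their KO levels. Adjusted p-values of the tested genes ran from 0.222 to 0.794 by limma. An unadjusted p under 0.05 was found for 8, all higher in KO, where 7.89% of all tested genes were higher at that level.

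The scale of the libraries bears on these differences. Over all tested genes the log2 difference had a median of 0.12 with TPM as deposited, 0.00883 after median-of-ratios scaling, -0.00141 after quantile normalization and 0.223 with protein-coding genes rescaled. Of all tested genes 708 were higher and 239 lower at an unadjusted p under 0.05 as deposited, and 355 higher and 435 lower after median-of-ratios scaling. The median over all 19 G2/M genes was 0.44 as deposited, 0.38 after that scaling and 1.03 with protein-coding genes rescaled. For the 20 G1/S and replication genes it was 0.33, 0.21 and 0.49 in the same order, and over all detected genes it was 0.05 as deposited.

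In 11 of the 39 genes all 3 KO libraries lay above all 3 WT libraries: 4 G2/M genes (Ccnb2, Aurka, Birc5 and Hmmr), 6 replication genes (Mcm3, Mcm4, Mcm6, Rrm2, Ccne1 and E2f1) and the G1 control gene Cdk2. The same was true of 9.13% of all detected genes. Of these 11, the 4 genes Ccnb2, Aurka, Rrm2 and Ccne1 were below the filter. None of the 39 had KO wholly below WT, which was seen in 2.31% of detected genes.

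**Figure D1:**
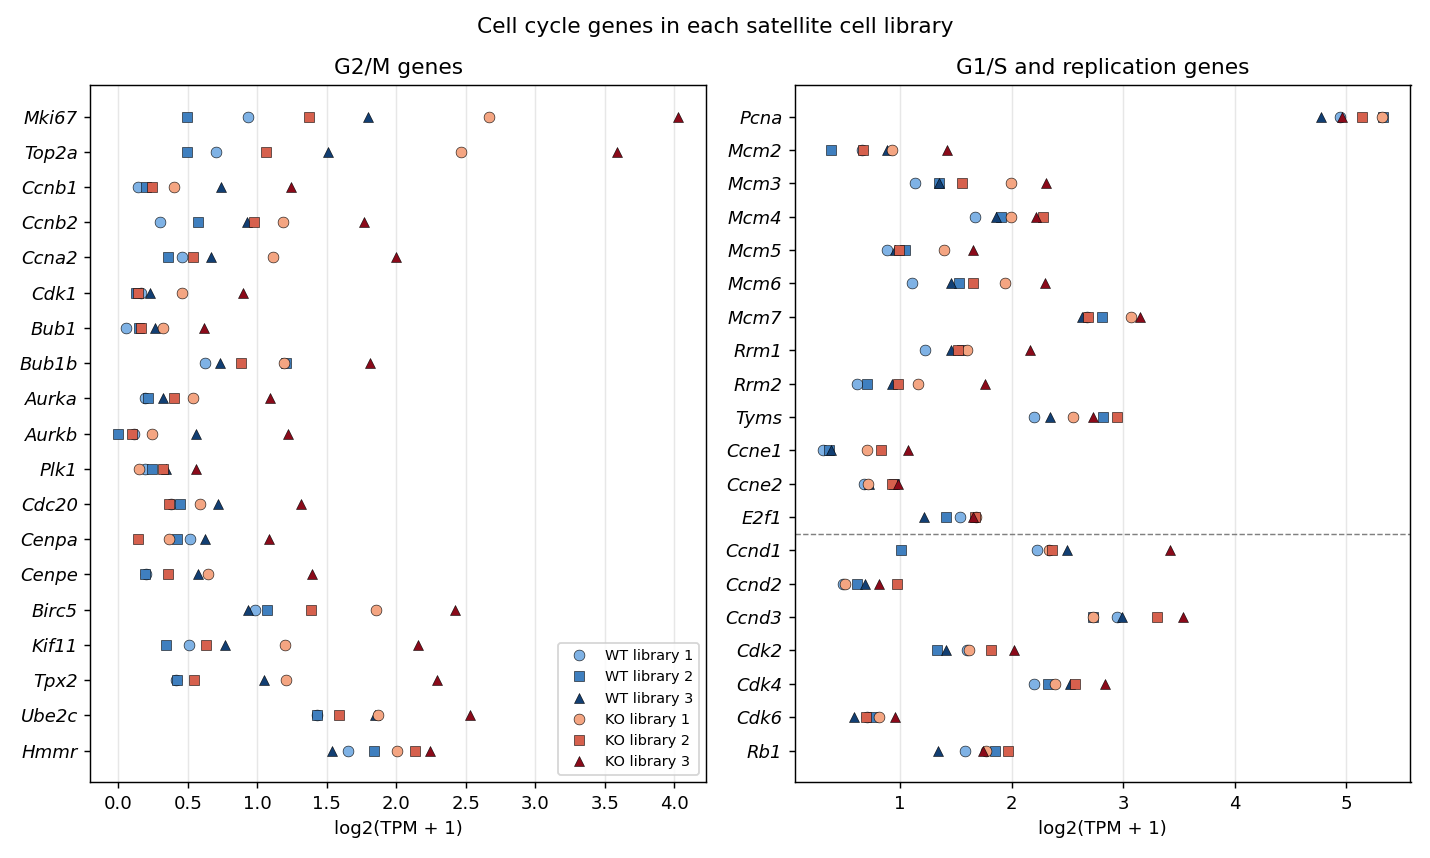
Level of each gene as log2(TPM + 1) on the horizontal axis, 1 symbol per library (blue WT, red KO; circle, square and triangle for libraries 1, 2 and 3), for 19 G2/M genes (left) and 20 G1/S and replication genes (right; G1 control genes below the dashed line). KO library 3 is the rightmost symbol in all 19 G2/M genes, and Pcna is the most abundant gene.

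The G2/M genes were dominated by one library. KO library 3 had the highest value in all 19 of them, whereas it was the highest library for 19.6% of all detected genes. Their summed level was 9.75, 10.4 and 17.3 TPM in WT libraries 1, 2 and 3, and 27.5, 14.7 and 64.4 TPM in KO libraries 1, 2 and 3. KO library 2 thus lay inside the WT range, KO library 1 above it and KO library 3 far above it. Relative to its own WT mean, the median G2/M gene stood at 2.15 in KO library 1, 1.08 in KO library 2 and 4.54 in KO library 3. WT library 3 was the highest WT library of the sum and stood at 1.48, and it exceeded KO library 2 in 14 of the 19 genes. KO library 3 exceeded KO library 1, which exceeded KO library 2, in 17 of the 19, an order found in 8.90% of detected genes.

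Spread within the KO group was correspondingly wide. The median SD of log2(TPM + 1) over the G2/M genes was 0.21 in WT and 0.50 in KO, and the KO value was the larger in 18 of 19 genes. This scale shrinks the spread of the group with lower levels, here WT. The ratio of highest to lowest library was larger in WT for Ccnb2 (3.91 against 2.47), Bub1 (5.0 against 4.42) and Hmmr (1.36 against 1.24). It was undefined for Aurkb and larger in KO for the rest. Over all tested genes, which leave out the G2/M genes below the filter, both median SDs were 0.17. The larger SD was in KO in 48.4%. For the 13 replication genes the medians were 0.16 and 0.25, and for the 7 G1 control genes 0.14 and 0.23.

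**Figure D2:**
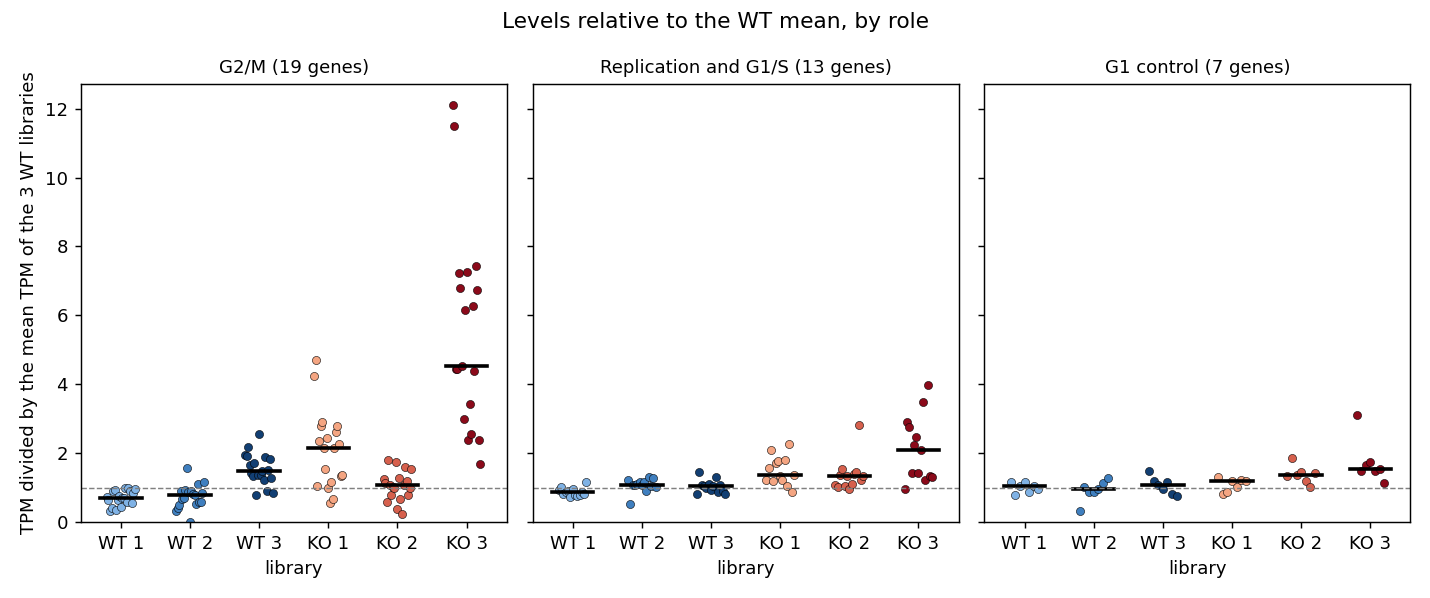
TPM of each gene divided by its mean in the 3 WT libraries (vertical axis, linear, starting at 0) for the 6 libraries, split by role; points are genes, black bars medians and the dashed line the WT mean. The G2/M genes of KO library 3 reach 12.1 with a median of 4.54, while the replication genes of the 3 KO libraries have medians of 1.36, 1.34 and 2.09.

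Mki67 and Top2a had the largest differences. Mki67 (chromosome 7, 135689784 to 135716361, GRCm38), which encodes the chromosome surface protein Ki-67 used as a proliferation marker, held 0.91, 0.41 and 2.47 TPM in WT and 5.35, 1.59 and 15.3 TPM in KO. Its groups overlapped, because KO library 2 lay below WT library 3, and KO library 3 held 9.63 times the level of KO library 2. The log2 difference was 1.61 (SE 0.60), with a limma adjusted p of 0.381, and it was 0.95 without KO library 3. Top2a (chromosome 11, 98992943 to 99024189), the topoisomerase that untangles replicated chromosomes, followed the same order, at 0.63, 0.41 and 1.84 TPM in WT and 4.53, 1.09 and 11.03 TPM in KO. The log2 difference was 1.47 (SE 0.56; limma adjusted p = 0.391), and 0.86 without KO library 3.

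Birc5 and Hmmr differed less but with separate groups. Birc5 (chromosome 11, 117849251 to 117855743), which encodes survivin of the chromosomal passenger complex, held 0.98, 1.10 and 0.91 TPM in WT and 2.61, 1.61 and 4.37 TPM in KO. Its lowest KO library was above its highest WT library, and the log2 difference of 0.89 (SE 0.24; limma adjusted p = 0.222) was 0.62 without KO library 3. Hmmr (chromosome 11, 40701395 to 40733422), a spindle protein and hyaluronan receptor, held 2.14, 2.58 and 1.90 TPM in WT and 3.02, 3.40 and 3.74 TPM in KO. On the log2 scale Hmmr was the one G2/M gene with a smaller SD in KO than in WT, and its log2 difference of 0.45 (SE 0.13; limma adjusted p = 0.253) stayed at 0.40 without KO library 3.

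The other tested G2/M genes were Ube2c, Tpx2 and Bub1b. Ube2c, the ubiquitin-conjugating enzyme of the anaphase-promoting complex, held 1.70, 1.70 and 2.59 TPM in WT and 2.65, 2.01 and 4.79 TPM in KO. Tpx2, a spindle assembly factor that activates Aurora A, held 0.33, 0.34 and 1.07 TPM against 1.31, 0.46 and 3.91 TPM. Bub1b, the checkpoint protein BubR1, held 0.54, 1.31 and 0.66 TPM against 1.29, 0.84 and 2.51 TPM. In each of the 3 genes the groups overlapped, and their log2 differences of 0.43, 0.72 and 0.44 had limma adjusted p-values of 0.575, 0.564 and 0.579.

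The mitotic cyclins and their kinase stood below the filter. Ccnb2, a B-type cyclin, held 0.23, 0.49 and 0.90 TPM in WT and 1.27, 0.97 and 2.40 TPM in KO, without overlap. Ccnb1, another B-type cyclin, held 0.10, 0.15 and 0.67 TPM against 0.32, 0.18 and 1.36 TPM. Ccna2, the cyclin of S phase and G2, held 0.37, 0.28 and 0.59 TPM against 1.16, 0.45 and 2.99 TPM. All 3 had KO library 3 on top, but Ccnb1 in KO libraries 1 and 2 lay within the WT range. Cdk1, the catalytic partner of these cyclins, held 0.12, 0.09 and 0.17 TPM in WT and 0.37, 0.10 and 0.86 TPM in KO.

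Among the mitotic kinases, Aurka, which acts at spindle poles, was separate between groups at 0.14, 0.16 and 0.25 TPM in WT and 0.45, 0.32 and 1.13 TPM in KO. Aurkb, the kinase of the passenger complex, was listed at 0 in WT library 2 and reached 0.47 TPM in WT and 1.33 TPM in KO library 3. Plk1 ranged from 0.14 to 0.27 TPM in WT and from 0.11 to 0.47 TPM in KO. Bub1, a checkpoint kinase, ranged from 0.04 to 0.20 TPM in WT and from 0.12 to 0.53 TPM in KO. Only KO library 3 lifted Aurkb and Plk1 above the WT range.

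The motor proteins Kif11, which separates spindle poles, and Cenpe, which moves chromosomes to the plate, shared the order of Mki67. Kif11 held 0.42, 0.27 and 0.70 TPM in WT and 1.30, 0.55 and 3.45 TPM in KO. Cenpe held 0.15, 0.14 and 0.49 TPM against 0.56, 0.28 and 1.63 TPM. Cdc20, the activator of the anaphase-promoting complex, held 0.30, 0.36 and 0.64 TPM in WT and 0.50, 0.29 and 1.49 TPM in KO. Cenpa, the centromeric histone H3 variant, was the G2/M gene with the smallest difference, at 0.43, 0.34 and 0.54 TPM in WT against 0.29, 0.10 and 1.12 TPM in KO. In Cenpa 2 of 3 KO libraries lay below every WT library.

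Without KO library 3 the mean difference turned below 0 in 5 of the 19 G2/M genes: Ccnb1 (-0.04), Aurkb (-0.05), Plk1 (-0.02), Cdc20 (-0.04) and Cenpa (-0.27 on the log2 scale). The median over all 19 went from 0.44 to 0.18, and over the 7 tested genes from 0.72 to 0.40. Of these 7, Mki67, Top2a, Bub1b, Birc5 and Tpx2 reached 1 TPM in only 1 WT library. The median of the 7 thus leans on genes that passed the filter mostly through their KO levels. The median of all tested genes was 0.12 with 6 libraries and 0.13 without KO library 3. The median of the 7 was 1.12 without KO library 2. Without KO library 3, 2 of the 7 had an unadjusted limma p under 0.05 in place of 4. Of all 8971 tested genes, 474 were higher and 203 lower at that level without KO library 3. With 6 libraries these were 708 and 239.

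**Figure D3:**
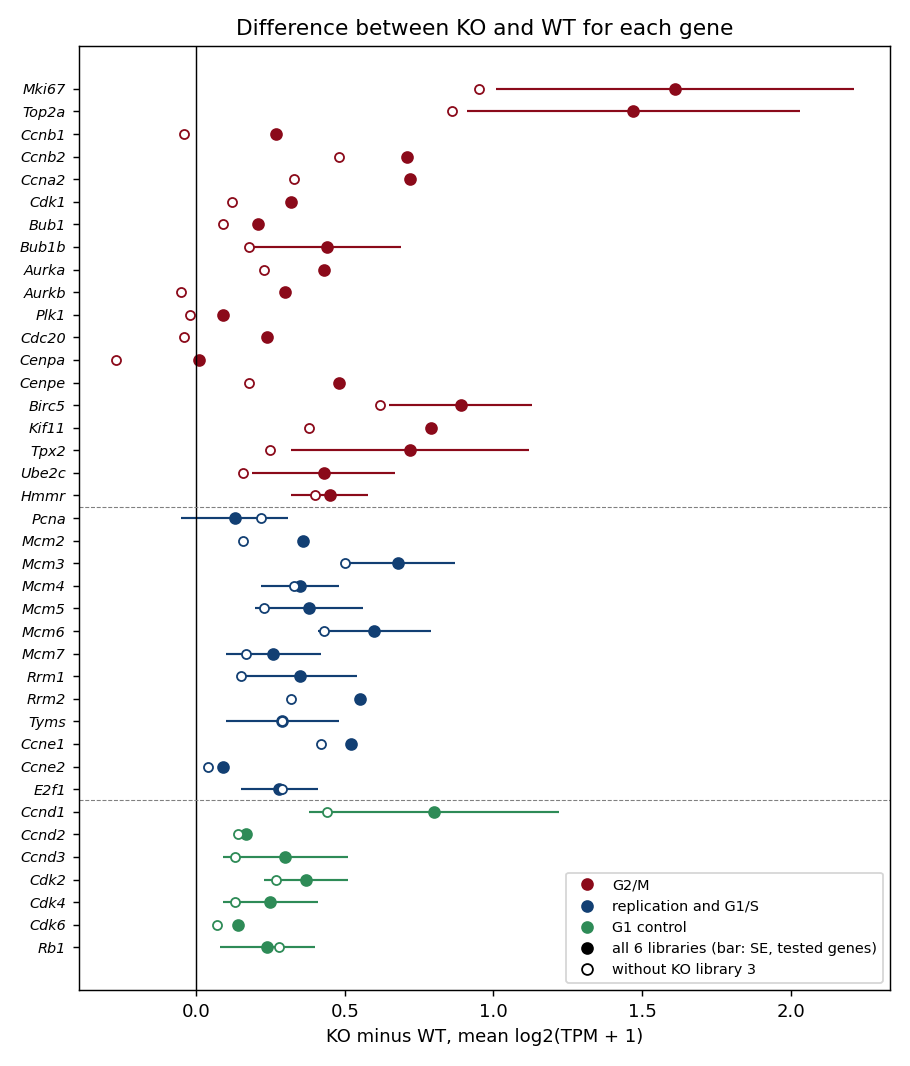
Mean log2(TPM + 1) of KO minus WT for the 39 genes, coloured by role; filled circles use all 6 libraries, with the limma standard error as a bar for the 21 tested genes, and open circles leave out KO library 3. 5 G2/M genes cross 0 when that library is left out, and no G1/S or replication gene does.

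With all 6 libraries the replication genes had a smaller median difference of log2(TPM + 1) than the G2/M genes, 0.35 against 0.44. Without KO library 3 it was larger, 0.29 against 0.18. This scale shrinks the differences of low genes, and most G2/M genes were below the filter. With a pseudocount of 0.1 and all 6 libraries, the medians were 0.5 for the replication and 1.0 for the G2/M genes. That pseudocount was not tried without KO library 3. Relative to its WT mean, the median of the 13 genes stood at 1.36, 1.34 and 2.09 in KO libraries 1, 2 and 3. KO library 2, which exceeded every WT library in 4 of the 19 G2/M genes, did so in 7 of the 13 replication genes, a share of 53.8% beside 44.7% of detected and 53.0% of tested genes, so the replication genes were near that background. All 20 G1/S and replication genes kept a higher mean in KO with any 1 library left out, and their median log2 difference of 0.33 was 0.25 without KO library 3. The difference between the G2/M and the replication genes was not tested, since genes are not replicates.

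The MCM helicase, a ring of the 6 subunits Mcm2 to Mcm7 that is loaded on origins in G1 and unwinds DNA in S phase, was separate between groups in 3 of its subunits. Mcm3 (chromosome 1, 20802968 to 20820312) held 1.19, 1.55 and 1.55 TPM in WT and 2.98, 1.94 and 3.96 TPM in KO. Mcm6 (chromosome 1, 128331590 to 128359664) held 1.15, 1.88 and 1.75 TPM in WT and 2.85, 2.14 and 3.93 TPM in KO. In both every KO library was above every WT library, and the log2 differences were 0.68 (SE 0.19; limma adjusted p = 0.243) and 0.60 (SE 0.19; limma adjusted p = 0.297). Without KO library 3 they were 0.50 and 0.43.

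Mcm4 (chromosome 16, 15623897 to 15637400) held 2.19, 2.75 and 2.63 TPM in WT and 2.99, 3.87 and 3.64 TPM in KO, without overlap, and here KO library 2 was the highest. Its log2 difference was 0.35 (SE 0.13; limma adjusted p = 0.387). Mcm7, the most abundant subunit, held 5.4, 6.01 and 5.19 TPM in WT and 7.40, 5.41 and 7.89 TPM in KO. Mcm5 held 0.85, 1.06 and 0.94 TPM against 1.63, 0.99 and 2.14 TPM, and Mcm2 0.58, 0.30 and 0.84 TPM against 0.90, 0.59 and 1.67 TPM. In Mcm2, Mcm5 and Mcm7 KO library 2 lay within the WT range, and the groups overlapped.

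Enzymes of nucleotide supply gave a mixed picture. Rrm2, the S-phase subunit of ribonucleotide reductase, held 0.53, 0.63 and 0.90 TPM in WT and 1.24, 0.97 and 2.40 TPM in KO, without overlap but below the filter. Rrm1, the large subunit, held 1.33, 1.94 and 1.75 TPM against 2.04, 1.87 and 3.49 TPM, with KO library 2 below WT library 2. Tyms, thymidylate synthase, held 3.60, 6.07 and 4.08 TPM against 4.87, 6.69 and 5.62 TPM, and its groups overlapped (limma adjusted p = 0.619).

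Pcna (chromosome 2, 132249162 to 132253314), the sliding clamp of DNA polymerases and also a p53-responsive repair factor, was by far the most abundant gene. It held 29.8, 39.1 and 26.3 TPM in WT and 38.8, 34.3 and 30.2 TPM in KO, and was the one gene of the 39 whose highest value was in a WT library. Its log2 difference was 0.13 (SE 0.18; limma adjusted p = 0.794), against -0.02 by median of ratios and -0.03 by quantiles. Pcna made up between 43.6% and 60.9% of the summed TPM of the replication genes in each library, a sum of 48.2 to 64.1 TPM in WT and 62.7 to 69.2 TPM in KO.

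Cyclin E, which with Cdk2 starts S phase, was low. Ccne1 held 0.24, 0.29 and 0.30 TPM in WT and 0.63, 0.78 and 1.10 TPM in KO, a ratio of means of 3.02. Its groups did not overlap, and of the 39 genes it had the smallest unadjusted p in a fit without the filter on low values (0.00324; limma adjusted p = 0.383 over 20506 genes). Ccne2 ranged from 0.60 to 0.93 TPM in WT and from 0.64 to 0.98 TPM in KO. E2f1 (chromosome 2, 154559407 to 154569892), the activating E2F factor released by Rb1, held 1.90, 1.66 and 1.32 TPM in WT and 2.21, 2.19 and 2.14 TPM in KO. The 3 KO values of E2f1 lay within 1.03 times of each other, and its log2 difference was 0.28 (SE 0.13; limma adjusted p = 0.478), or 0.29 without KO library 3.

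The log2 differences of the G1 control genes ran from 0.14 for Cdk6 to 0.80 for Ccnd1. Cdk2, the kinase of cyclins E and A, was the only one whose groups were separate, at 2.03, 1.52 and 1.66 TPM in WT and 2.07, 2.51 and 3.05 TPM in KO (log2 difference 0.37, SE 0.14; limma adjusted p = 0.406). Ccnd1 (chromosome 7, 144929931 to 144939925), the mitogen-responsive cyclin D1, held 3.67, 1.01 and 4.65 TPM in WT and 4.04, 4.14 and 9.72 TPM in KO. WT library 2 was its lowest and KO library 3 its highest library; the log2 difference of 0.80 (SE 0.42; limma adjusted p = 0.543) was 0.34 without the former and 0.44 without the latter.

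Ccnd3, the most abundant D-type cyclin, held 6.69, 5.62 and 6.92 TPM in WT and 5.62, 8.87 and 10.6 TPM in KO, with KO library 1 at the lowest WT level. Cdk4 held 3.59, 4.03 and 4.76 TPM against 4.24, 4.92 and 6.15 TPM, and overlapped. Rb1, the brake on E2F, held 1.99, 2.61 and 1.54 TPM against 2.42, 2.92 and 2.34 TPM, also with overlap. Ccnd2 and Cdk6 stayed under 1 TPM in every library, with ranges of 0.40 to 0.96 TPM and 0.50 to 0.94 TPM. For this group the KO libraries stood at medians of 1.18, 1.38 and 1.55 times the WT mean. KO library 2 was thus above KO library 1, the reverse of the G2/M genes. Over all tested genes the medians were 1.04, 1.19 and 1.09, and KO library 2 exceeded KO library 1 in 68.5%. The G1 control genes thus shared the order of these 2 libraries with most genes.

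Further genes of the same processes, taken from lists by function that were drawn up with earlier results known, were read in the same way. Of 61 other mitotic genes 60 had a higher mean in KO (detected genes: 68.6%), and KO library 3 was the highest library in 56 (19.6%). Their medians relative to the WT mean were 2.35, 1.18 and 5.90 in KO libraries 1, 2 and 3, close to those of the 19 G2/M genes. KO lay wholly above WT in 16 of the 61 and wholly below in 1, beside 9.13% and 2.31% of detected genes. Limma called 0 of the 16 tested. At an unadjusted limma p under 0.05, 6 were higher and 1 lower. Of all tested genes 7.89% and 2.66% were higher and lower at that level. Among the 6, Spc25 held 0.5, 0.37 and 0.9 TPM in WT and 1.6, 1.03 and 4.02 TPM in KO. Knl1 held 0.83, 1.13 and 0.76 TPM against 1.16, 1.31 and 1.91 TPM. Spc25 thus passed the filter only through its KO levels and Knl1 mostly so, which limits the comparison with all tested genes.

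The smallest p-values of that list belonged to Stmn1, Smc4, Prc1 and Cks1b. Stmn1, a microtubule-destabilizing protein, held 3.63, 3.53 and 4.92 TPM in WT and 14.6, 5.52 and 24.5 TPM in KO. Its log2 difference of 1.46 (SE 0.42; limma adjusted p = 0.252) came with separate groups. Smc4, a condensin subunit, held 3.54, 3.70 and 4.36 TPM against 5.94, 5.52 and 10.3 TPM, and Prc1, which bundles midzone microtubules, 1.65, 1.67 and 2.38 TPM against 3.15, 3.06 and 7.29 TPM. Cks1b, a small subunit of cyclin-dependent kinases, held 1.37, 0.91 and 1.05 TPM against 1.84, 1.53 and 2.47 TPM. All 4 had KO above WT in every library. Ccnf, an F-box cyclin that was named after its values were seen, was the member with KO below WT, at 1.42, 1.53 and 1.19 TPM against 1.06, 0.23 and 0.62 TPM.

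Of 50 other replication genes 47 had a higher mean in KO (detected genes: 68.6%), and KO library 3 was the highest in 41 (19.6%). Their medians relative to the WT mean were 1.16, 1.15 and 2.02 in KO libraries 1, 2 and 3. KO lay wholly above WT in 10 of the 50, beside 9.13% of detected genes. Limma called 0 of the 19 tested, and 2, both higher, had an unadjusted p under 0.05. That was close to the 7.89% of all tested genes that were higher at that level. After median-of-ratios scaling 43 of the 50 had a higher mean in KO, and without KO library 3 it was 41. Lig1, which seals Okazaki fragments, held 1.01, 0.89 and 1.22 TPM in WT and 2.34, 1.40 and 4.43 TPM in KO (log2 difference 0.79, SE 0.26; limma adjusted p = 0.325). Pold2, a subunit of DNA polymerase δ, held 1.01, 0.74 and 1.09 TPM against 1.59, 1.21 and 2.83 TPM, and the maintenance methyltransferase Dnmt1 1.5, 1.23 and 1.63 TPM against 1.65, 1.74 and 3.39 TPM. These groups were separate. Tk1, thymidine kinase, overlapped at 0.65, 1.38 and 0.55 TPM against 1.57, 1.22 and 1.48 TPM.

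Regulators of the E2F, Rb and DREAM families other than E2f1 and Rb1 were more mixed. Of 18 genes 14 had a higher mean in KO (detected genes: 68.6%). Of the 8 that passed the filter 5 were higher, beside 6959 of all 8971 tested genes. KO library 3 was the highest in 8 of the 18 (detected genes: 19.6%). Medians relative to the WT mean were 1.32, 1.12 and 1.2 in KO libraries 1, 2 and 3, and sums were 27.6, 25.2 and 30.1 TPM. Beside 8.9% of detected genes, the order of KO library 3 above 1 above 2 was seen in 8 of the 18. Foxm1, the mitotic transcription factor, which was named after its values were seen, was among them at 0.45, 0.40 and 0.58 TPM in WT and 1.07, 0.54 and 1.90 TPM in KO. Limma called 0 of the 8 tested. The only one with an unadjusted p under 0.05 was the repressor E2f6, which held 3.95, 4.03 and 3.01 TPM in WT and 3.06, 2.43 and 2.41 TPM in KO (limma adjusted p = 0.41). E2f3, an activating E2F factor, held 1.37, 1.15 and 1.22 TPM against 1.63, 1.27 and 2.05 TPM, and E2f4, the E2F subunit of DREAM, 3.41, 3.45 and 2.81 TPM against 3.65, 3.02 and 4.26 TPM. Lin54, the DREAM subunit that binds CHR elements, held 2.22, 2.75 and 2.16 TPM against 3.27, 2.61 and 2.54 TPM. In these 5 genes the groups overlapped.

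Markers of other cell types also differed between libraries, in other orders than the G2/M genes. Counts of markers with a higher mean in KO stand beside 68.6% of detected genes. Schwann cell markers had a higher mean in KO in 9 of 10 genes, with summed levels of 15.8 to 21.1 TPM in WT and 21.3 to 43.7 TPM in KO. KO library 3 was the highest of them, but KO library 1, second in the G2/M genes, stood at 21.3 TPM beside 21.1 TPM in WT library 3. Endothelial markers, higher in KO in 8 of 10, summed to 13.3 to 20.2 TPM in WT and 12.8 to 27.4 TPM in KO, with KO library 1 the lowest of all 6 libraries.

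Leukocyte markers, higher in KO in 6 of 10, summed to 3.48 to 12.1 TPM in WT and 5.91 to 12 TPM in KO. Their defining marker Ptprc did not exceed 0.29 TPM, but Lyz2, Cd74 and Cd68 reached 4.88, 4.29 and 2.99 TPM. Erythroid markers, higher in KO in 7 of 8, summed to 18.3 to 215 TPM in WT and 38.4 to 437 TPM in KO. Among the KO libraries KO library 3 was the lowest. Hba-a1 reached 168 TPM, in KO library 2. The precursor marker Klf1, the only one lower in KO, was at no more than 0.1 TPM. Fibro-adipogenic markers were higher in KO in 7 of 10, at 134 to 239 TPM in WT and 166 to 192 TPM in KO. Mural markers were higher in 4 of 7, at 20.6 to 24.5 TPM and 18.6 to 35.8 TPM, and mature fibre markers in 6 of 7, at 10.7 to 25.8 TPM and 7.11 to 38.9 TPM, KO library 1 being the lowest in both. No marker of these lists was at 0 in all 6 libraries. Their part in the cell cycle result was not tested.

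Within the myogenic lineage, satellite cell markers had a higher mean in KO in 10 of 12 (detected genes: 68.6%). They summed to 470 to 596 TPM in WT and 497 to 666 TPM in KO. Commitment markers, higher in KO in 3 of 8, summed to 142 to 170 TPM in WT and 118 to 163 TPM in KO. Myod1, the most abundant commitment marker, held 97.09, 100.12 and 86.96 TPM in WT and 100.5, 64.25 and 65.52 TPM in KO. Its highest library was KO library 1, and KO library 3 lay below every WT library. Myog, a marker of differentiating myoblasts, was named after its values were seen. It held 3.69, 1.27 and 4.59 TPM in WT and 1.63, 1.80 and 6.43 TPM in KO. The highest library of Myog was KO library 3, while KO library 1 was near its lowest.

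**Figure D4:**
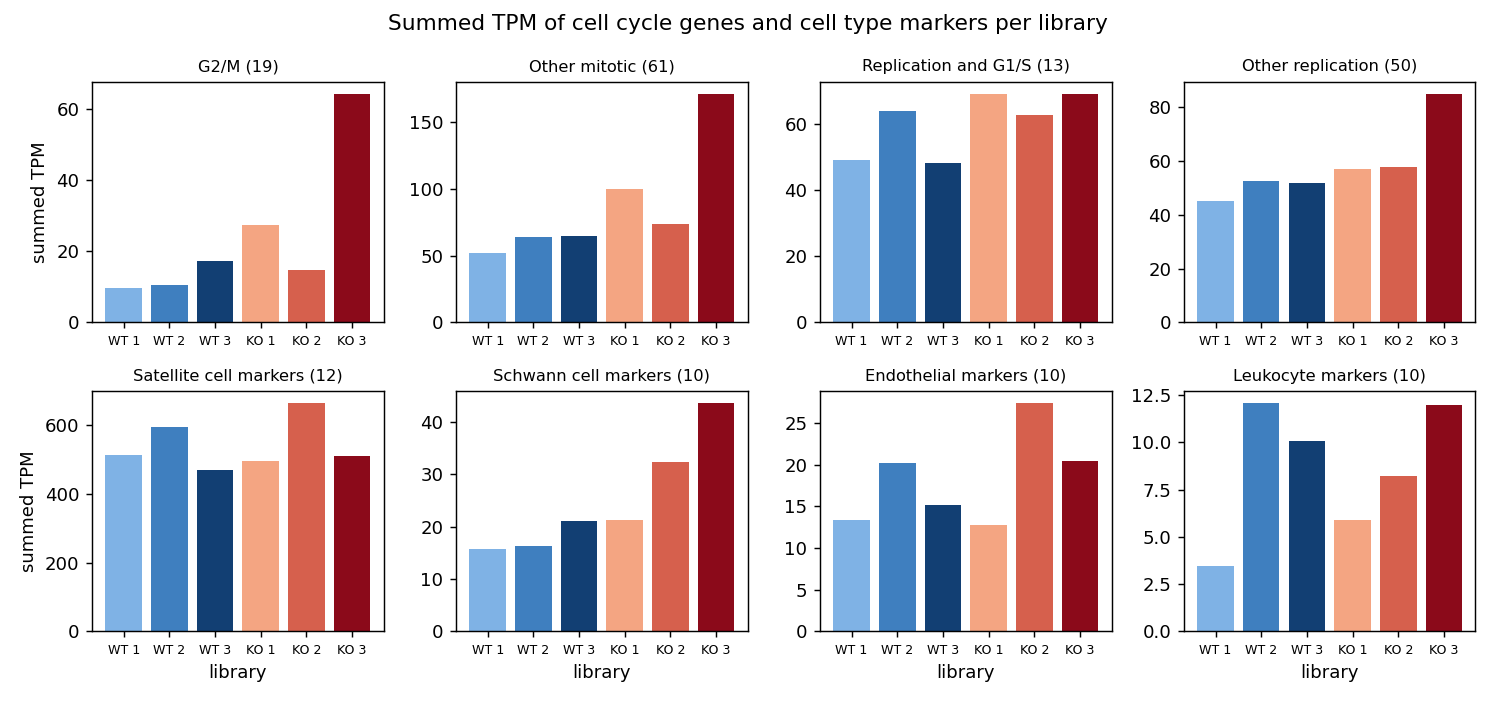
Summed TPM (vertical axes, each starting at 0) per library of cell cycle gene lists (top) and cell type marker lists (bottom), with the number of genes in brackets. KO library 3 is the highest for both mitotic lists and for the other replication genes, and KO library 1 is second for both mitotic lists but the lowest for endothelial markers.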

How the data were processed

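RNA-seq of 6 samples of sorted satellite cells was used, 3 WT and 3 KO. The authors deposited 1 table of TPM per gene symbol. Per the submitters' processing notes, CASAVA, Trimmomatic 0.33, FastQC, kallisto and the builds GRCm38 and mm10 were used, with no roles given. Depth is unknown. Among the symbols, 26 had been turned into dates and could not be used.

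Genes with 1 TPM or more in at least 3 libraries were tested on the log2(TPM + 1) scale (limma 3.58.1, R 4.3.3; trended variance, KO against WT, Benjamini-Hochberg adjustment over all 8971 tested genes), after the procedure was tested on simulated data. Fold changes on this scale understate those of low genes. Alternatives were other pseudocounts (0.1 and 5), filters, scalings and variance models, and leaving out each library.

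The members and all gene lists were chosen with earlier results of these data known. Every member is named. Of each further cell cycle list, up to 4 tested genes with the smallest p are named, and of the marker lists the defining markers. For leukocyte, erythroid and commitment markers the most abundant are named too. Positions are from GENCODE vM21 and promoter sequences from RefSeq.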

Additional observations from a re-analysis of the deposited data

How the results depend on the processing

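No cell cycle gene passed the adjusted threshold under any of the alternatives, and the smallest adjusted limma p among the 39 was 0.0583, with estimated library weights. The number of all genes past the threshold, 5 as reported, was 2 with a pseudocount of 0.1 and 2 with one of 5. It was 0 with no filter on low values, where 1198 genes were higher and 374 lower at an unadjusted p under 0.05, and 0 with a filter on a mean TPM of 1 (723 and 243). It was 3 after median-of-ratios scaling, 1 after quantile normalization, 86 with protein-coding genes rescaled, 33 with robust variance estimation and 80 with library weights. Leaving out 1 library gave between 0 and 6 genes, the 0 being without KO library 3 (474 and 203 at an unadjusted p under 0.05).

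The median log2 difference of the tested G2/M genes, 0.72 as reported, was 1.28 with a pseudocount of 0.1 and 1.33 with protein-coding genes rescaled. It ran from 0.40 to 1.12 with 1 library left out. Most of these tested genes passed the filter mostly through their KO levels. Over all 19 G2/M genes the median was 0.44 as reported, 1.0 with that pseudocount and 1.03 with protein-coding genes rescaled. The median of the tested G1/S and replication genes, 0.33 as reported, was 0.16 with a pseudocount of 5 and 0.20 after quantile normalization. It was 0.49 with protein-coding genes rescaled and ran from 0.27 to 0.41 with 1 library left out. Pcna turned to -0.02 after median-of-ratios scaling and -0.03 after quantile normalization. Esr1 passed the threshold with protein-coding genes rescaled (-0.96; limma adjusted p = 0.0361), robust variance estimation (-0.86; 0.024) and library weights (-0.86; 0.0222). Apart from the numbers of libraries and genes that an alternative removes, the cause of these changes was not tested. No paired analysis was possible because the labels do not pair any WT library with a KO library.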

Other observations

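Histone genes made up most of the other tested genes that were far above the WT mean in KO library 3 and above it in KO library 1. The limits were set after the values of the cell cycle genes were seen, as at least 4 times the WT mean in KO library 3, at least 2 times in KO library 1, and less in KO library 2 than in KO library 1. These were met by 38 of the 8971 tested genes. Of these 38, 4 were among the 21 tested of the 39 (Mki67, Top2a, Birc5 and Tpx2). The further cell cycle lists held 3 (Stmn1, Lig1 and Spc25). The remaining 31 held 27 histone genes, 3 microRNA genes and Tnc, the matrix protein tenascin-C. The share of all tested histone genes that met the limits is not given here. Some passed the filter only through KO, such as Hist1h4n at 0.39, 0 and 0.14 TPM in WT. Replication-dependent histone genes are transcribed in S phase to package new DNA.

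Hist1h2ap held 4.17, 2.34 and 7.05 TPM in WT and 27.2, 2.88 and 66.9 TPM in KO libraries 1, 2 and 3. Hist1h1b, a linker histone gene, held 0.77, 0.71 and 2.16 TPM in WT and 4.58, 0.62 and 13.2 TPM in KO. In both, KO library 2 lay within or below the WT range. Core histone genes have near-identical copies between which reads can be split, so the value of a single copy is uncertain. Hist1h2bq and Hist1h2br held the same value in every library, so the 27 histone genes are not all separate measurements. Tnc held 0.99, 0.63 and 1.06 TPM in WT and 6.38, 2.38 and 6.72 TPM in KO, where all 3 KO libraries lay above WT. These genes were selected by the values given here, and no test was made on them.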
